A study of Bos taurus with 4 samples.

Results

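The hypoblast, or primitive endoderm, is the layer that lines the inner face of the inner cell mass (ICM) in the blastocyst, and 9 genes known for it were examined: the transcription factors GATA6, GATA4, SOX17, HNF4A and FOXA2, the receptor PDGFRA, and the secreted proteins APOA1, TTR and AFP. The members were those of the 9 genes with a probe of that symbol in the annotation of the array, and all their probes were taken. This gave 8 genes with 22 probes, of 12545 named genes and 27952 named probes, with between 2 probes (GATA6, GATA4, SOX17, APOA1 and TTR) and 6 probes (AFP) per gene. HNF4A and FOXA2 had 3 probes each. No probe of the annotation carried the symbol PDGFRA, and this receptor was not analysed here.

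Bovine embryos were fertilised in vitro and kept in synthetic oviduct fluid (SOF), the usual medium for cattle embryos, for 4 days. They then went into new SOF or into NHSM (naive human stem cell medium), and the ICMs were cut free by hand on day 9. NHSM is KO DMEM with 20% knock-out serum replacement, insulin, glutamine, non-essential amino acids, beta-mercaptoethanol, 20 ng/ml LIF, 8 ng/ml bFGF and 1 ng/ml TGFbeta1. It also contains PD0325901, CHIR99021, Go6983, SP600125 and SB203580, which inhibit the ERK1/2 route, GSK3beta, PKC, JNK and p38. Since the base medium, serum replacement, growth factors and inhibitors changed together, the parts that each played cannot be told apart. Each pool held 11 to 24 ICMs of mixed-breed oocytes, and by the study's methods dissected ICMs keep some trophectoderm cells. RNA of 4 NHSM pools and 4 SOF pools was amplified and hybridised in pairs to 4 two-colour arrays, with NHSM in Cy3 on arrays 1 and 3 and in Cy5 on arrays 2 and 4.

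In the ICM of the mouse, cells that receive FGF signals through the ERK route raise GATA6 and lower NANOG, and then switch on GATA4, SOX17 and the endoderm programme, while PDGFRA marks their surface. Later, the endoderm that comes from these cells lays down a basement membrane and secretes plasma proteins such as apolipoproteins, transthyretin and alpha-fetoprotein. HNF4A and FOXA2 are factors of the visceral endoderm and the liver that act on many of the genes for these secreted proteins.

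A floor was set in each channel from its most often repeated control probes (the 95th percentile of their signals), and signals at or under it were taken as not measured. The floors lay between 83.5 and 140.3 signal units, and between 44.0% and 72.1% of the gene probes of a pool were above them. The NHSM pool of array 1 had the lowest of these shares. Of the 22 member probes, 6 were above the floor in all 8 pools, 10 in some pools and 6 in none. Over all gene probes, 41.6% were above it in all pools and 20.1% in none. The 6 probes that were above it in every pool belonged to GATA6, GATA4, FOXA2, APOA1 (both probes) and AFP. A further 2 probes, HNF4A BTAA025765 and AFP BTAA009409, were above the floor in 1 NHSM pool and in no SOF pool, so that 14 probes were measured in both media. No ratio is given for the remaining 8.

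**Figure D1:**
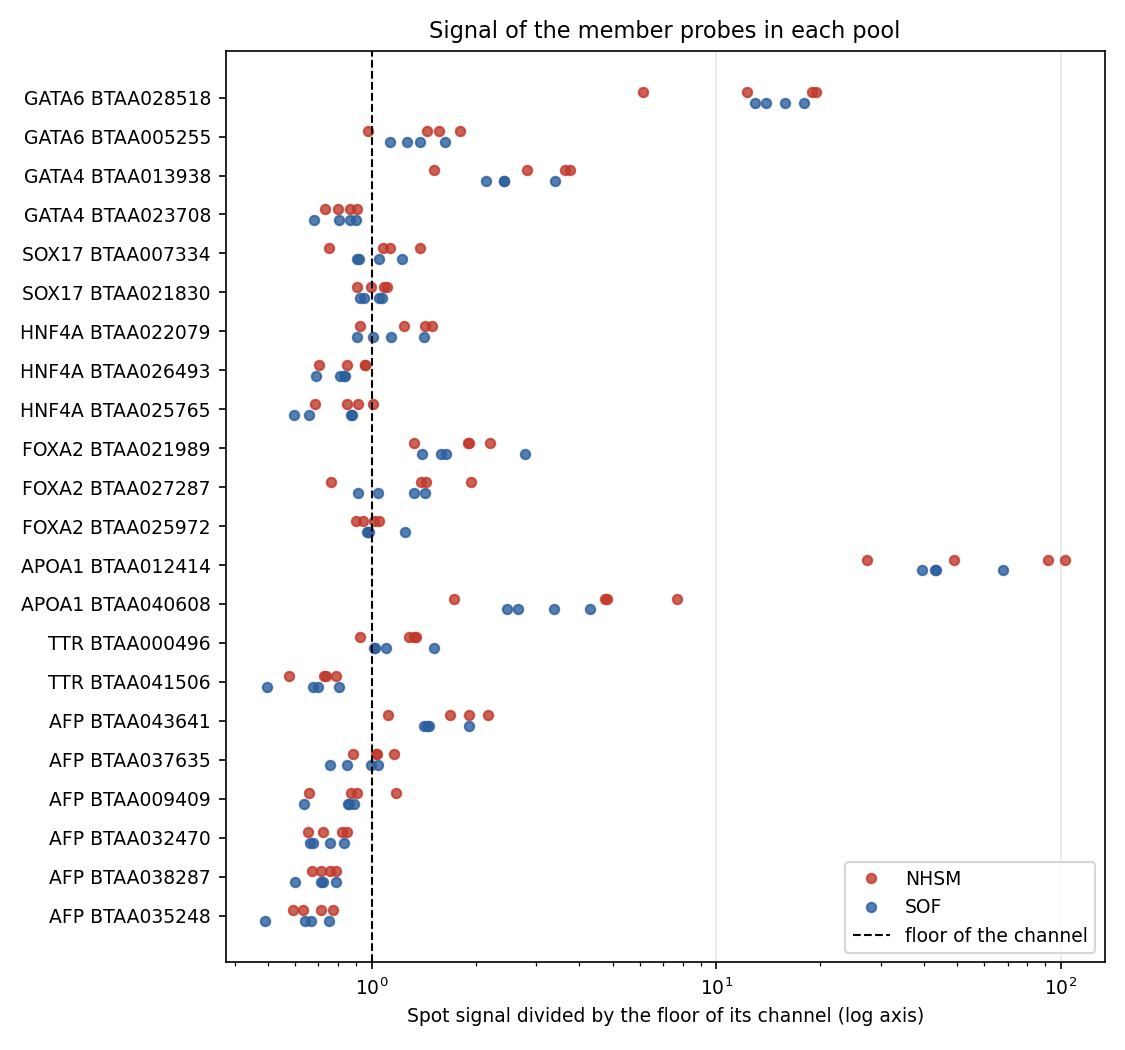
Spot signal divided by the floor of its channel (horizontal, log axis) for the 22 member probes, with a red point for each of the 4 NHSM pools and a blue point for each of the 4 SOF pools; the dashed line is the floor. APOA1 BTAA012414 lay between 27.3 and 102.6 times the floor and GATA6 BTAA028518 between 6.14 and 19.5 times, while 6 probes lay at or under it in all pools.

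NHSM and SOF were compared at each probe by the log2 ratio of NHSM over SOF on the 4 arrays, with a dye term, in limma. Only GATA6 passed an adjusted p of 0.05, and it was lower in NHSM. The other measured members had ratios close to 0, with intervals inside a 1.5-fold change either way, though several of their probes stood near the floor. So 1 of 22 member probes passed, beside 8.43% of all 43653 gene probes, and 0 of 22 was called at 1.5-fold or more, beside 1.75% of all gene probes. By the brightest probe of each gene, 1 of 8 members was lower in NHSM and 0 were higher, beside 5.94% and 5.95% of the named genes. The pools of the media did not overlap at 1 of 22 member probes, beside 7.87% of all gene probes.

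GATA6, a zinc finger factor at the start of the hypoblast programme in mouse, gave signals of 861, 1587, 1379 and 1915 in NHSM pools 1 to 4 at probe BTAA028518. The SOF pools of the same arrays gave 1619.6, 1947, 1636 and 1633. These raw signals, which also carry the effects of dye and array, overlapped between the media. After normalization, the log2 levels were 10.21, 10.35, 10.29 and 10.59 in NHSM and 10.71, 10.91, 10.61 and 11.00 in SOF. All 4 NHSM pools thus lay below all 4 SOF pools, although the highest NHSM pool (array 4) and the lowest SOF pool (array 3) were nearly level. The mean log2 level was 10.36 ± 0.16 (SD, n = 4) in NHSM and 10.81 ± 0.18 (SD, n = 4) in SOF.

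The log2 ratios of GATA6 BTAA028518 on arrays 1 to 4 were -0.49, -0.56, -0.32 and -0.41, lower in NHSM on every array and in both dye orientations. The fitted log2 ratio was -0.44 with a standard error of 0.07 and a 95% interval from -0.61 to -0.28, a 1.36-fold lower level in NHSM (limma, adjusted p = 0.0104). Of all named genes, 3.01% had a ratio as low or lower. The study reports that GATA6 expression in the ICM, by immunostaining, was not significantly altered between its media. In whole embryos of an earlier day, it reports lower GATA6 RNA in its naive media than in SOF, by qRT-PCR. In pooled ICMs, fewer GATA6 cells and less GATA6 RNA per cell cannot be told apart. The call was lost when replicate 2 was left out (log2 ratio -0.41, adjusted p = 0.0659), with median centring in place of loess (-0.35, adjusted p = 0.0799) and when the 8 channels were fitted as separate samples with no replicate block (-0.44, adjusted p = 0.123).

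The other GATA6 probe, BTAA005255, did not pass, and stood near the floor. Its signals were 137, 150.5, 176 and 142 in the NHSM pools and 142, 156, 149 and 162 in the SOF pools, above the floor in 7 of 8. The media overlapped, and the ratios on arrays 1 to 4 were -0.03, 0.04, 0.13 and -0.37, with no common sign. The fitted log2 ratio was -0.06 (standard error 0.09, 95% interval -0.26 to 0.14, limma adjusted p = 0.853). The ratio of BTAA028518 was lower than that of BTAA005255 on every array, by 0.04 (array 4) to 0.60 (array 2) on the log2 scale, and this difference was not tested. The mean of both probes gave a log2 ratio of -0.25 (standard error 0.06, limma adjusted p = 0.0323).

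**Figure D2:**
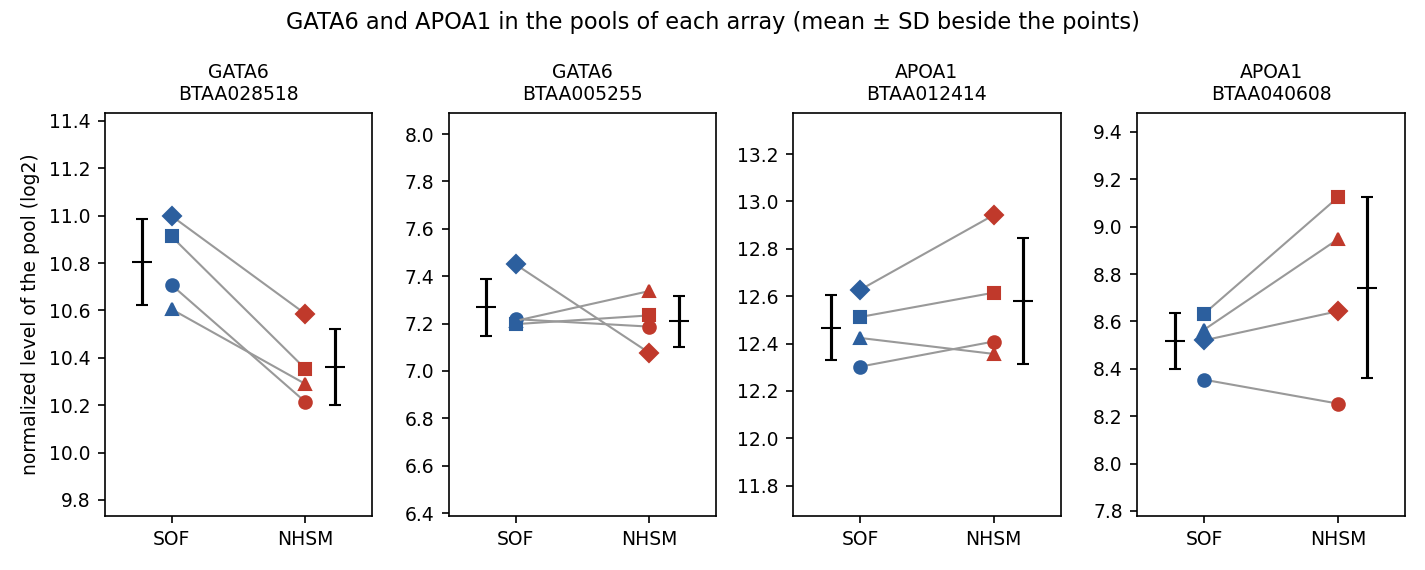
Normalized log2 level of the SOF pool (blue) and the NHSM pool (red) of each array, joined by a line (circle, square, triangle and diamond for arrays 1 to 4), for the probes of GATA6 and APOA1, with the mean ± SD of the 4 pools beside them; each panel spans the same range of log2 units. All lines fall at GATA6 BTAA028518, whereas at the other probes the pools of the media overlap.

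GATA4, the related factor that follows GATA6 in mouse, gave signals of 212, 314, 317 and 358 in NHSM and 303, 298, 311 and 252 in SOF at probe BTAA013938. In raw signal the range of the NHSM pools enclosed that of the SOF pools, and the normalized levels of the media overlapped. Its ratios on arrays 1 to 4 were -0.28, 0.01, -0.07 and 0.09, and the fitted log2 ratio was -0.06 (95% interval -0.23 to 0.10, limma adjusted p = 0.783). Whether GATA6 and GATA4 differed in their ratios was not tested. The other GATA4 probe was at or under the floor in all pools.

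SOX17, an HMG-box factor of the early endoderm, was near the floor at both probes. BTAA007334 gave between 106 and 121 in NHSM and between 108 and 129.6 in SOF, with 5 of 8 pools above the floor. BTAA021830 gave between 83 and 127 in NHSM and between 96 and 133 in SOF, with 4 of 8 above. The media overlapped at both, and the fitted log2 ratios were -0.06 (95% interval -0.22 to 0.09) and -0.03 (95% interval -0.20 to 0.15).

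HNF4A, a nuclear receptor of visceral endoderm and liver, was measured at BTAA022079 only, with 6 of 8 pools above the floor. The signals were 129, 125, 139.5 and 139.8 in NHSM and 113, 140.4, 129.7 and 118 in SOF. The pools overlapped, and the fitted log2 ratio was 0.05 (95% interval -0.12 to 0.22, limma adjusted p = 0.859).

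FOXA2, a forkhead factor of the endoderm, was above the floor in all pools at BTAA021989, but near it. The signals were 186, 183, 215 and 186 in NHSM and 199, 202, 253 and 164 in SOF, between 1.33 and 2.78 times the floor. In raw signal the NHSM pools lay within the range of the SOF pools, and the normalized levels of the media overlapped. The fitted log2 ratio was -0.11 (95% interval -0.31 to 0.08, limma adjusted p = 0.594). The dimmer FOXA2 probes had fitted log2 ratios of 0.00 (BTAA027287, 95% interval -0.19 to 0.19) and -0.13 (BTAA025972, 95% interval -0.30 to 0.04). Neither passed, and FOXA2 BTAA025972 was above the floor in 3 of 8 pools only.

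Among the secreted proteins, APOA1, the main protein of high-density lipoprotein, stood furthest above the floor. At BTAA012414 it gave signals of 3836, 7673, 5494 and 10082 in NHSM and 5445, 5327, 6199 and 4645 in SOF. The lowest and the highest signals were both from NHSM pools, and both of the higher NHSM pools were labelled with Cy5. After normalization the mean log2 level was 12.58 ± 0.27 (SD, n = 4) in NHSM and 12.47 ± 0.14 (SD, n = 4) in SOF, and the ratios on arrays 1 to 4 were 0.11, 0.10, -0.07 and 0.32. The fitted log2 ratio of 0.11 did not pass (95% interval -0.06 to 0.29, limma adjusted p = 0.523).

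The other APOA1 probe, BTAA040608, gave signals of 243, 642, 543 and 468 in NHSM and 309, 418, 391 and 312 in SOF. The NHSM pools of arrays 2, 3 and 4 were above all SOF pools and that of array 1 was below all of them. The ratios on arrays 1 to 4 were -0.10, 0.49, 0.38 and 0.12, and the fitted log2 ratio was 0.22 (standard error 0.10, 95% interval -0.01 to 0.46, limma adjusted p = 0.302). Without replicate 1, which had the NHSM pool with the fewest probes above the floor, it was 0.34 with an adjusted p of 0.0411.

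TTR, the carrier of thyroid hormone and of retinol-binding protein, was measured at BTAA000496, where NHSM pools gave between 112 and 149 and SOF pools between 119 and 138. In raw signal the SOF pools lay within the range of the NHSM pools, and the normalized levels of the media overlapped. At this probe 7 of 8 pools were above the floor, and the fitted log2 ratio was -0.02 (95% interval -0.18 to 0.13, limma adjusted p = 0.943). The other TTR probe was at or under the floor in all pools.

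AFP, the main plasma protein of the fetus, made by yolk sac endoderm and liver, had 6 probes. BTAA043641 was above the floor in all pools, but near it, between 1.11 and 2.17 times the floor. Its signals were 156, 182, 189 and 188 in NHSM and 181, 180.3, 175 and 166 in SOF. The pools overlapped, and the fitted log2 ratio was -0.03 (95% interval -0.19 to 0.12, limma adjusted p = 0.908). AFP BTAA037635, above the floor in 4 of 8 pools, had a fitted log2 ratio of 0.08 (95% interval -0.10 to 0.26). The remaining 4 AFP probes were not measured in both media.

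**Figure D3:**
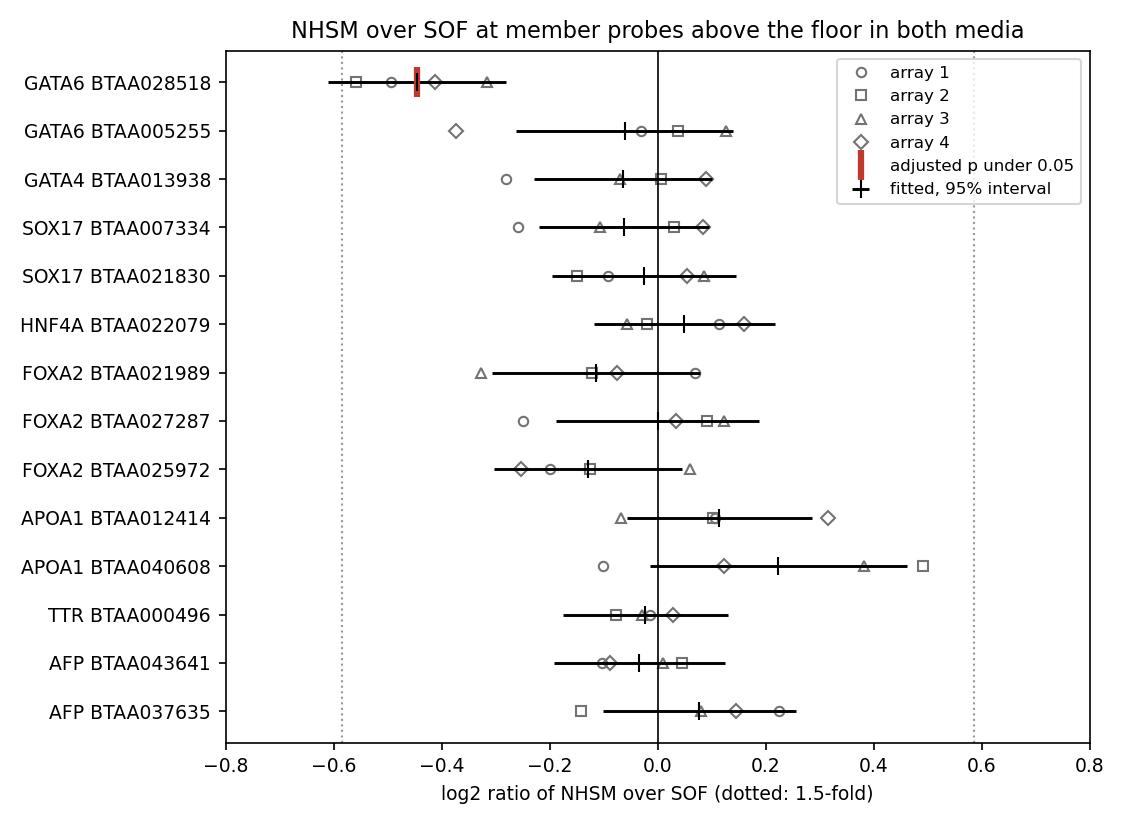
Log2 ratio of NHSM over SOF (horizontal) on each of the 4 arrays (open symbols) with the fitted value and its 95% interval (black) at the 14 member probes that were above the floor in at least 1 pool of each medium; dotted lines mark 1.5-fold. The interval of GATA6 BTAA028518, from -0.61 to -0.28, crosses the lower dotted line and lies below 0, and the other 13 intervals lie between the dotted lines and include 0.

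Over the 13 measured probes that did not pass, the fitted log2 ratios ran from -0.13 to 0.22, with 9 below 0 and 4 above. Their 95% intervals ran from -0.31 at the lowest bound to 0.46 at the highest. Each lay within a 1.5-fold change either way (0.58 on the log2 scale), while smaller changes are not settled with 4 arrays. Several of these probes stood near the floor, and no background was subtracted. At those probes the interval describes the spot signals and does not bound the change in RNA. Of the 22 member probes, 1 had the same sign on all 4 arrays, against 21.0% of all gene probes. The arrays differed at the member probes about as much as elsewhere, with a median SD of the 4 log2 ratios of 0.15 over member probes and 0.16 over all gene probes. By the brightest probes, the median log2 ratio of the 8 members was -0.05, beside -0.02 over all named genes. The medians of the members were -0.06, -0.01, -0.07 and 0.06 on arrays 1 to 4, so array 4 was on the other side of 0 from the rest.

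For the 5 members whose brightest probe was above the floor in all pools, the normalized levels, with the mean of each dye removed, were set against each other over the 8 pools. Pearson's r was 0.67 between GATA6 and GATA4, 0.42 between GATA4 and AFP, and -0.74 between FOXA2 and APOA1, and it was between -0.31 and 0.32 for the other pairs. With 8 pools that share arrays and dyes in pairs, these values are a description. The difference between the media was not removed, so it enters each r. At GATA6 and APOA1, the probes of the gene did not follow each other closely, with r of 0.28 and 0.21. The dimmer GATA6 probe stood near the floor. Other pairs of probes of 1 gene ran as high as 0.87, at 2 AFP probes that were under the floor in all pools.

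The same measure over 7801 genes that were above the floor in all pools gave the genes most like each member. For GATA6 these were ENPP4 (r = 0.99), the miRNA gene MIR331 (0.99) and FBXO25 (0.98). For GATA4 they were UBP1, C10H14ORF1 and MFAP3 (r between 0.94 and 0.95), and for FOXA2 they were GRN, COL11A1 and MARK1 (0.98 to 0.99). For APOA1 they were BCL7B, CEP55 and EZR (0.96 to 0.98), and for AFP they were B2M, SBF1 and S100PBP (0.97). No member was among the genes most like another member. These genes were picked as the highest of 7801, so the values, which include the difference between the media, describe the pools and were not tested.

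Other genes of the hypoblast and of the routes around the members were taken as 8 lists, with 85 distinct genes measured by a named probe. Of these 85 genes, 11 passed lower in NHSM and 0 passed higher, beside 5.94% and 5.95% of all named genes. Their median log2 ratio was -0.05, beside -0.02 over all named genes. The counts of single lists below stand against the same shares and were not tested against them. Of the 85, 3 were at or under the floor in all pools. The number that passed was 7 with no dye term, 4 with no replicate block, and 7 without replicate 2 or without replicate 4.

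Of the other hypoblast transcription factors, 0 of 4 passed (SOX7, GATA5, HHEX and SALL4). Only SALL4 was above the floor in all pools, with a log2 ratio of -0.04. HHEX, with -0.09, was above it in 3 NHSM pools and 2 SOF pools. SOX7 and GATA5 were above it in no SOF pool, so no ratio is given for them. Of 7 genes of the endoderm surface and of endocytosis, 2 passed. LRP2, the endocytic receptor megalin, had a log2 ratio of -0.39 (limma adjusted p = 0.0221), with 0.01, -0.70, -0.29 and -0.59 on arrays 1 to 4, so array 1 did not share the direction. EPCAM, an epithelial adhesion molecule, had a log2 ratio of -0.38 (adjusted p = 0.0372) and was lower on all 4 arrays at this probe. The second EPCAM probe, BTAA005614, was also above the floor in all pools and did not pass (-0.22, adjusted p = 0.170), with 0.21 on array 1. Both calls were lost with no dye term, with no replicate block, with a variance trend, and without replicate 2 or 4.

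Of the ligands of the PDGF receptors, 0 of 3 passed. PDGFB BTAA009706, its brightest probe, was at the limit of the scanner (65527) in NHSM pool 2, so its fitted log2 ratio of 0.07 is not exact. Its ratios followed the dyes, with a mean of 0.81 on the arrays with NHSM in Cy3 and -0.67 on those with NHSM in Cy5. The other PDGFB probe had a log2 ratio of 0.01. PDGFC had -0.05, and PDGFD had 0.03. No probe carried the symbols PDGFA, PDGFRB or PDGFRL.

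Of 22 genes of the FGF and MAPK route, which sets apart hypoblast and epiblast in mouse, 4 passed, all lower in NHSM. SPRY4 and DUSP5 were at or under the floor in all pools at the probes used, so their change cannot be read here. The study lists SPRY4 and DUSP4 among its most changed genes, lower in NHSM, with a larger fold for DUSP4 than at the probe used here. DUSP4, a phosphatase that acts on MAP kinases, had a log2 ratio of -0.90 (standard error 0.12, limma adjusted p = 0.00512). At this probe the NHSM pools lay between 0.998 and 2.36 times the floor, and 3 of the 4 were above it. With no background subtracted, this ratio describes the spot signals and does not bound the change in RNA. SPRY2, a feedback inhibitor of receptor tyrosine kinase signals, had -0.78 (standard error 0.09, adjusted p = 0.00287). SPRED1, a related inhibitor, had -0.62 (standard error 0.08, adjusted p = 0.00545), and the FGF receptor FGFR4 had -0.49 (standard error 0.07, adjusted p = 0.00586). At each of these 4 genes, all NHSM pools lay below all SOF pools at the brightest probe. Further probes of these genes did not pass. SPRED1 BTAA022811, above the floor in all pools, had a log2 ratio of 0.01, the second probes of SPRY2 and DUSP4 were at or under the floor in all pools, and the further FGFR4 probes were above it in 1 pool and in none. With the mean of all probes of the gene, SPRED1 had -0.14 (adjusted p = 0.224) and FGFR4 had -0.15 (adjusted p = 0.121), and both calls were lost.

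Among 24 other secreted plasma proteins, 0 passed, with log2 ratios between -0.17 (APOA2) and 0.25 (AHSG) and a median of -0.01. These values include APOB, APOH and PLG, which were above the floor in no pool of 1 of the media. The ratios of APOA2 followed the dyes, with a mean of -0.74 with NHSM in Cy3 and 0.40 with NHSM in Cy5. AHSG was above the floor in 3 NHSM pools and 2 SOF pools. Of these 24, 13 were above the floor in all pools. Of the 24, 1 passed with the deposited log2 ratios of the authors, and 1 passed without replicate 1.

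Of 11 genes of the basement membrane, 3 passed, each lower in NHSM on all 4 arrays at its brightest probe. LAMB1, a laminin chain, had a log2 ratio of -0.72 (standard error 0.07, limma adjusted p = 0.00152), and NID1, which links laminin with collagen IV, had -0.64 (standard error 0.10, adjusted p = 0.0109). The 4 other NID1 probes did not pass, among them BTAA033116, above the floor in all pools, with -0.40 (adjusted p = 0.0629) and 0.03 on array 3. SPARC, a matrix glycoprotein that the parietal endoderm of mouse secretes in large amounts, had -0.58 (standard error 0.06, adjusted p = 0.00287). A further 3 SPARC probes passed as well, with log2 ratios between -0.54 and -0.42. The dimmest SPARC probes stood near the floor and did not pass (BTAA036226, -0.10, adjusted p = 0.588, and BTAA040787, -0.17, adjusted p = 0.431). LAMA1 and LAMC1, the laminin chains that pair with LAMB1, had -0.06 and -0.04 and did not pass. Their probes stood near the floor, with signals of 151 to 197 (LAMA1) and 159 to 206 (LAMC1), against 2217 to 5959 at LAMB1. Whether these chains changed with LAMB1 can therefore not be read here. Of the signals of the visceral endoderm, 1 of 7 passed. This was FST, the activin-binding protein follistatin, with -0.51 (adjusted p = 0.0318), above the floor in 3 NHSM pools and 4 SOF pools. Of the partners of the GATA factors, 1 of 7 passed. This was GATA2, with -0.35 (adjusted p = 0.0300). The calls of FST and GATA2 were each lost with no dye term, with no replicate block, without replicate 2 or 4 and with the mean of all probes of the gene.

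**Figure D4:**
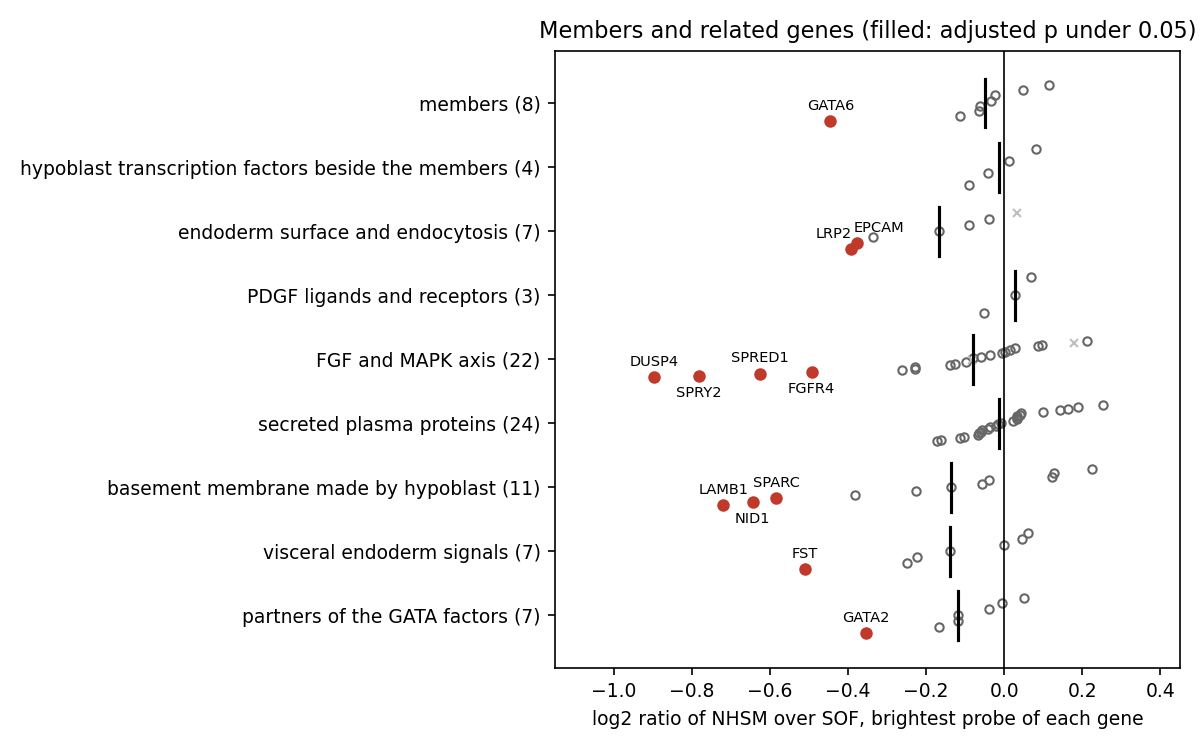
Log2 ratio of NHSM over SOF at the brightest probe of each gene (horizontal) for the 8 members and 8 lists of related genes, with the number of genes measured in brackets; filled red points had an adjusted p under 0.05, open points did not, grey crosses were at or under the floor in all pools, and black bars are medians. All filled points lie left of 0, among them GATA6 at -0.44 and DUSP4 at -0.90.

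Markers of the cell types that an ICM pool can hold were also read. Of 12 epiblast markers listed, 4 were measured by a named probe, and POU5F1 was not among them. Of these 4, 3 passed lower, namely NANOG (log2 ratio -0.31), SOX2 (-0.32) and PRDM14 (-0.32), and SALL4 (-0.04) did not pass. These 3 calls were lost with median centring, with no dye term, with no replicate block and without replicate 2 or 4. From these arrays the study reports no significant change of SOX2, unlike the call here. It reports NANOG as lower, which its qRT-PCR did not bear out. The summed normalized level of the 4 genes was between 4327 and 5466 in NHSM and between 5697 and 6316 in SOF. Of 13 trophectoderm markers, 2 passed lower, GATA2 and TFAP2A (-0.46, a call lost with no replicate block and without replicate 4). The other 11 did not pass. Log2 ratios over the 13 ran from -0.46 to 0.39, with a median of -0.10, and the highest was that of PAG2 (limma adjusted p = 0.111). The sum of the 13 was between 92252 and 106574 in NHSM and between 106864 and 114774 in SOF. Of 14 hypoblast markers, 2 passed lower, GATA6 and LRP2, and the sum was between 22115 and 29151 in NHSM and between 28053 and 30685 in SOF. A few bright probes make up most of each sum, and the sums were not tested. Of 4 markers of cumulus and granulosa cells, FSHR (0.44) passed higher, a call lost with no dye term and without replicate 2, and the sum was between 16198 and 31356 in NHSM and between 21609 and 48156 in SOF. No measured gene of these marker lists was at or under the floor in all pools. The markers that passed lower moved in the direction of GATA6, and their part in its lower level was not tested.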

How the data were processed

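The deposited scanner files hold linear, unnormalized intensities of spots and their backgrounds, and the authors' table holds a log2 ratio (Cy5 over Cy3) for every spot of an array. By the study's methods the authors extracted spots with ImaGene, applied loess to mean spot signals and corrected gene-specific dye bias. Each deposited column correlated best with the raw Cy5 over Cy3 ratio of its own array (r across probes 0.49 to 0.68). Here, mean signals of 43653 gene probes were normalized by loess within arrays in limma 3.58.1 (R 4.3.3), with no background correction and weight 0 for 1567 control spots. Terms for NHSM against SOF and for dye were fitted, with 2 residual and 5.33 prior degrees of freedom and Benjamini-Hochberg adjustment over all gene probes. Levels per pool were also scaled between arrays (Aquantile). Of the named probes, 1831 had their symbol updated through a synonym in RefSeq's ARS-UCD2.0 annotation. The NHSM and SOF pools of 1 array were a pair because they share its spots, and by the study's methods the pools are independent biological replicates. The brightest named probe stood for a gene. Named genes were all members, up to 4 genes per list that passed with the lowest adjusted p, all PDGF genes, and the 3 genes most like each member; other genes (list genes that did not pass, and markers) were named after their values were seen. The members and lists were chosen with earlier results of these data known. The fit was tested on simulated data. Alternatives were normexp with an offset of 50, median centring, no dye term, no replicate block, the authors' ratios, a variance trend, a filter on dim probes, probe means, and each replicate left out. The number of arrays limits the precision.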

Additional observations from a re-analysis of the deposited data

Results flagged for a closer look

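In 80 groups of 4 values (the log2 ratios of member probes and of the named list genes, and the levels of member probes in each medium), 4 had 1 value far from the rest. Chance gives about 1 in 20 groups. At GATA6 BTAA005255, the SOF pool of array 4 had a log2 level of 7.45 against 7.20 to 7.22 in the other SOF pools, and it is on this array that the probe had its lowest ratio, -0.37. The NHSM pool of array 1 had a log2 level of 6.49 at AFP BTAA038287, against 6.21 to 6.24 in the others, and that of array 3 had 6.56 at HNF4A BTAA026493, against 6.50. Both of these probes were at or under the floor in all pools. The log2 ratio of FST on array 1 was -1.04, against -0.37 to -0.27 on the other arrays. At this probe the NHSM pool of array 1 was under the floor, at 0.903 times it.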

How the results depend on the processing

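GATA6 BTAA028518 kept its direction in every alternative run, with log2 ratios from -0.49 (without replicate 3) to -0.40 (without replicate 1) when 1 replicate was left out. It did not pass without replicate 2 (-0.41, adjusted p = 0.0659), with median centring (-0.35, adjusted p = 0.0799) and with no replicate block (-0.44, adjusted p = 0.123), and passed in the other alternatives. The number of member probes that passed was therefore 0 with median centring and 0 with no replicate block, and between 0 (without replicate 2) and 2 (without replicate 1, where APOA1 BTAA040608 passed as well) with 1 replicate left out, and the number of member genes was 0, 0 and between 0 and 1. The other 21 member probes gave 224 values under alternatives, of which 27 had another sign than the value reported and 1 passed. Of the genes of the other lists, 7 passed with no dye term, 4 with no replicate block and between 7 and 15 with 1 replicate left out. The calls of DUSP4, LAMB1 and NID1 were lost with no replicate block, and those of SPRED1 and FGFR4 with the mean of all probes of the gene. Over all gene probes, 370 were called higher and 394 lower at 1.5-fold or more, against 563 and 300 with median centring. In none of these cases was the cause tested. The pools of a pair share an array, and the labels do not say whether they also share a round of embryo culture. The block therefore stands for the array and for anything else a pair may share. Probes near or under the floor, among them all of SOX17, TTR, HNF4A, FOXA2 and AFP, limit what can be read of these genes.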
